A study of Mus musculus with 9 samples.

Results

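The BCL2 family decides whether a cell under stress keeps its mitochondria intact, and 10 of its genes were followed here in sorted monocytes/macrophages after ischemic stroke: the pro-survival genes Mcl1, Bcl2, Bcl2l1, Bcl2a1a, Bcl2a1b and Bcl2a1d, the effectors Bax and Bak1, and the BH3-only genes Bcl2l11 and Bid. The genes were taken by name, and each of the 10 matched 1 of the 53801 Ensembl genes counted in every library. They were chosen with earlier results of these data known, so the shares of members set beside all genes below are descriptions and not tests of the family. All mice were male C57BL/6J, aged 9 weeks by the study's record. For stroke, the distal middle cerebral artery on the left side was closed for good (dMCAO) together with the left common carotid artery, and 3 groups of 3 libraries were compared. Stroke brain and stroke blood were collected 5 days after dMCAO. Sham blood came from mice that had surgery without the occlusion, on a day that the sources used here do not name. A blood library held the cells of 1 mouse and a brain library those of 5 mice pooled, so the brain libraries average over animals and the blood libraries do not. Cells were sorted as CD11c- Ly6G- CD11b+ CD45high, and in the brain this gate cannot separate activated microglia from macrophages derived from monocytes. Libraries were bulk RNA-seq with 18475118 to 22623578 counted reads each, so that 3 counts, the floor used for detection, equalled 0.133 to 0.162 counts per 1000000 (CPM), a limit that covers counting error only.

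In this family the pro-survival proteins hold the effectors BAX and BAK in check at the outer mitochondrial membrane. BH3-only proteins are the stress sensors: they occupy the pro-survival proteins or activate the effectors, which then open the membrane, release cytochrome c and start the caspases. Among myeloid cells, neutrophils are known for their need of MCL1, a protein with a very short life. Myeloid cells are also known for A1, the product of the Bcl2a1 genes, which inflammatory signals through NF-kappaB switch on. The mouse genome holds several near-identical Bcl2a1 copies where the human genome holds a single gene.

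The markers of other cells were measured before the members were compared, because the gate can hold more than monocytes. All 10 listed microglia markers were higher in stroke brain than in stroke blood by edgeR's test at the thresholds below, with a summed level of 1275, 2017 and 3798 CPM in the 3 brain libraries and 167 to 254 CPM in the 6 blood libraries. Sall1, a defining factor of microglia, was at 0 in all 6 blood libraries. Monocyte markers summed to 6478 to 7539 CPM in the brain and 17040 to 35131 CPM in blood, with Chil3 the most abundant. Of these 10 genes 5 were called lower over stroke blood. Over sham blood 4 were called lower, and 1 was higher at the adjusted p alone. Erythroid markers, led in blood by the globin gene Hbb-bs, summed to 14113 to 20485 CPM in stroke blood and 3.81 to 13.7 CPM in the brain. In sham blood libraries 1, 2 and 3 their sums were 1251, 33894 and 31119 CPM. Sham blood library 1 therefore stood apart from the other sham libraries. Platelet markers followed it, with 18.0 CPM in that library, 433 and 657 CPM in the others, and Ppbp as their leading gene in blood. Their sums were 328 to 391 CPM in stroke blood and 35.1 to 79.2 CPM in the brain, where 5 of 6 were called lower than in stroke blood and most of the sum came from the 1 that was not. Macrophage markers summed to 13257 to 22269 CPM in the brain and 5608 to 7947 CPM in blood. Most of the brain sum was Apoe, at 7891 to 13638 CPM, and 5 of the 8 genes were called higher over stroke blood. Those of dendritic cells, led in the brain by Cd209a, summed to 630 to 825 CPM there and 98.6 to 346 CPM in blood. The sums of neutrophil markers overlapped, at 1136 to 1739 CPM in the brain and 681 to 3421 CPM in blood, but their genes moved in both directions. Over stroke blood 5 of the 9 tested were called higher by edgeR, with a list median of 2.49, and 1 was called lower, Mmp8 (-1.79), the most abundant in stroke blood. B cell markers (Ighm) summed to 433 to 691 CPM in the brain and 656 to 975 CPM in blood. The brain sums overlapped those of stroke blood and lay below those of sham blood, over which 5 of 7 genes were called lower by edgeR. Neural markers also overlapped as a sum, at 149 to 261 CPM in the brain and 171 to 330 CPM in blood, but most of it was Mbp. This gene was at 117 to 175 CPM in the brain and 168 to 328 CPM in blood, and lower in the brain than in stroke blood (-0.87, edgeR adjusted p = 0.017). Ttr was called higher in the brain than in stroke blood (12.95, edgeR adjusted p = 0.000496). It was at 85.9, 13.9 and 41.2 CPM in the brain libraries and 0 in all blood libraries. By its markers the gate should leave out mature red cells, platelets and most T cells, yet RNA of their marker genes was counted. In bulk RNA, fewer cells of a type and less RNA per cell cannot be told apart.

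The comparison of stroke brain with stroke blood asks what differs between the sorted cells of the injured brain, which can include microglia, and those in the circulation. Brain cells were freed with a tissue dissociation kit on a heated device and a Percoll gradient, and blood cells were taken from a Ficoll gradient. No sham brain group was among the libraries. Tissue, injury and cell preparation therefore cannot be told apart in either comparison of brain with blood. Every pro-survival member was higher in all 3 brain libraries than in all 3 stroke blood libraries, Bak1 was lower in all 3, and the remaining members overlapped. A gene was called when it changed more than 2-fold in either direction and its p, adjusted by Benjamini-Hochberg, was below 0.05 in edgeR's quasi-likelihood test over all genes that passed the filter on low counts, which all 10 members did in each comparison. Of the 10 members, 6 were called, beside 21% of the 13189 genes tested. The 5 called higher were Mcl1, Bcl2, Bcl2a1a, Bcl2a1b and Bcl2a1d, beside 13.1% of genes called higher, and Bak1 was called lower, beside 7.86%. The 3 Bcl2a1 genes are near-identical copies and not separate evidence. Once they were counted as a single gene, those called were Mcl1, Bcl2, the Bcl2a1 sum and Bak1. The counts and the median that follow hold each copy as a member. At the adjusted p alone 7 members passed, beside 30.6%, with Bcl2l1 added, and 6 of these were higher, beside 17.5%. At an unadjusted p below 0.05 the share of all genes was 42.2%, and the same 7 members were below it. The 2 groups did not overlap for 7 members, beside 48% of the genes tested. The median log2 fold change of the members was 1.02, and that of all genes tested was 0.06. With stroke blood library 3 left out, 3 members were called instead of 6, Bcl2a1b, Bcl2a1d and Mcl1, and over all genes 2266 of 13896 instead of 2771 of 13189.

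In stroke brain versus sham blood 4 of the 10 members were called, beside 13.4% of the 13020 genes tested: Bcl2 and the 3 Bcl2a1 copies. All 4 were higher, beside 9.75% of genes called higher, and no member was called lower by edgeR or DESeq2, beside 3.67%. The same 4 passed the adjusted p alone, beside 19.8%, with none lower, beside 7.68%, and were the members at an unadjusted p below 0.05, beside 34.3%. For 5 members these 2 groups did not overlap, beside 41.3% of genes. Once the 3 Bcl2a1 copies were counted as a single gene, 2 were called here, Bcl2 and the sum. The brain libraries are the same as in the first comparison, so the comparisons are not independent. Stroke blood versus sham blood asks what stroke changes in the circulating cells. None of the 10 members was called there by edgeR, beside 0.0079% of the 12664 genes tested, which is 1 gene, and DESeq2 called none of the 10 either. At an unadjusted p below 0.05 edgeR's test had 1 member, Bak1, beside 12.5% of genes, and the groups did not overlap for 1 member, Bcl2a1b, beside 18.4%.

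**Figure D1:**
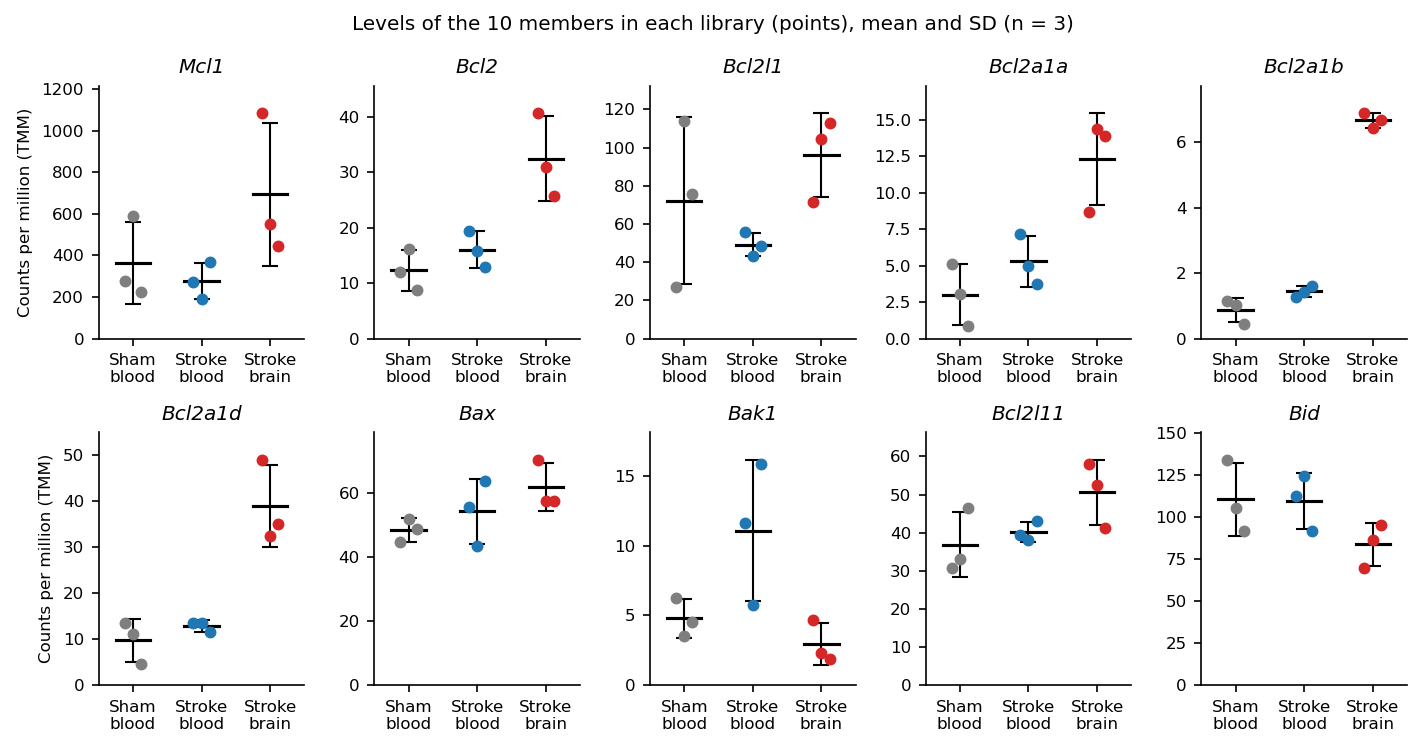
Level of each member in CPM after TMM normalization (y axis, from 0) in sham blood, stroke blood and stroke brain, with 1 point per library and the mean and SD of 3 as bar and whiskers. The 3 brain points of every pro-survival gene lie above the 3 stroke blood points, and those of Bak1 lie below them.

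Mcl1 (ENSMUSG00000038612, chr3:95658788-95663176, plus strand, GRCm38) encodes a pro-survival protein that neutrophils depend on. Its level was 278, 590 and 223 CPM in sham blood libraries 1 to 3, 270, 192 and 367 CPM in stroke blood, and 1084, 549 and 446 CPM in stroke brain. Brain library 1 was highest by far, and sham blood library 2 reached the range of the brain, so the brain separated from stroke blood but not from sham blood. The log2 fold change of stroke brain over stroke blood was 1.37 ± 0.34 (SE, n = 3 against 3; edgeR adjusted p = 0.0148). It fell to 0.89 without brain library 1, below the fold threshold, and the edgeR adjusted p was 0.0676 without stroke blood library 1 and 0.0686 without stroke blood library 2. Against sham blood the log2 fold change, with its SE, was 0.93 ± 0.44 (edgeR adjusted p = 0.179).

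Bcl2 (ENSMUSG00000057329, chr1:106538178-106714274, minus strand) is the founding member of the family and a neighbor in function of Bcl2l1, which encodes BCL-XL. It stood at 11.99, 16.2 and 8.75 CPM in sham blood, 19.4, 15.8 and 12.9 CPM in stroke blood, and 40.7, 31.0 and 25.7 CPM in stroke brain. All 3 brain libraries lay above all 6 blood libraries, while sham and stroke blood overlapped. The log2 fold change was 1.05 ± 0.25 over stroke blood (edgeR adjusted p = 0.0121) and 1.39 ± 0.28 over sham blood (edgeR adjusted p = 0.0138). The call over sham blood was kept in all 6 fits that left out 1 library. The call over stroke blood sat at the fold threshold: the log2 fold change was 0.85 without brain library 1, 0.87 without stroke blood library 3 (edgeR adjusted p = 0.0534), and 0.89 with upper-quartile normalization.

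Bcl2l1 (ENSMUSG00000007659, chr2:152780668-152831728, minus strand) gave 26.8, 114 and 75.6 CPM in sham blood, 55.8, 43.4 and 48.3 CPM in stroke blood, and 71.3, 104 and 113 CPM in stroke brain. The brain and stroke blood libraries did not overlap, and the sham blood libraries ran from below to above both. Over stroke blood the log2 fold change, with its SE, was 1.00 ± 0.20 (edgeR adjusted p = 0.0057), which is 1.998-fold and just under the fold threshold. It passed that threshold without stroke blood library 1 (1.06), without brain library 1 (1.18) and when scaled by library size only (1.15). In a fit of all 9 libraries it no longer passed the adjusted p (0.97, edgeR adjusted p = 0.0901). Against sham blood the log2 fold change, with its SE, was 0.41 ± 0.45 (edgeR adjusted p = 0.561), with 0.02 when sham blood library 1 was left out and 0.90 when library 2 was left out.

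BCL-XL is also the survival factor of maturing red cells and platelets, and Bcl2l1 had a wide range in sham blood. In sham blood Bcl2l1 and the erythroid sum had the same order, lowest in library 1 and highest in library 2. The platelet sum was lowest in library 1 and highest in library 3. In stroke blood Bcl2l1 was highest in library 1, the platelet sum in library 2 and the erythroid sum in library 3. The brain libraries had 71.3 to 113 CPM of Bcl2l1 with erythroid sums of 3.81 to 13.7 CPM, and 2 or 3 of the 7 erythroid markers were at 0 in each. The part of erythroid or platelet RNA in the blood values of Bcl2l1 was not tested.

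**Figure D2:**
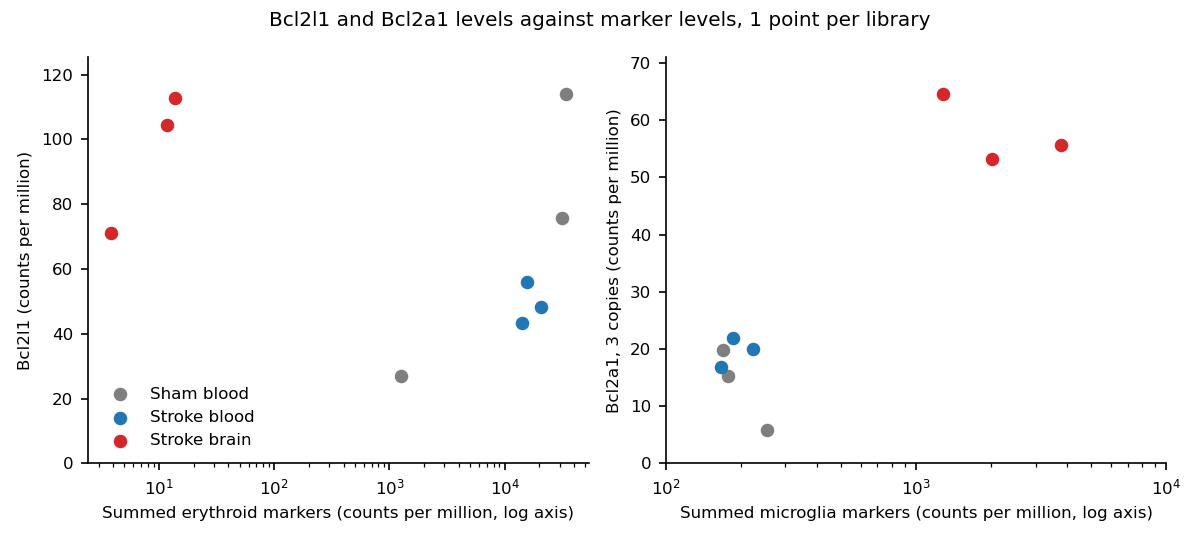
Left, Bcl2l1 level (y axis, CPM) against the sum of 7 erythroid markers (x axis, CPM, log scale); right, summed level of the 3 Bcl2a1 copies against the sum of 10 microglia markers, with 1 point per library. Bcl2l1 was at 71.3 CPM or above in the 3 brain libraries with almost no erythroid RNA, and both Bcl2a1 and the microglia markers were highest in the brain libraries. Among the 3 brain libraries Bcl2a1 and the microglia markers did not have the same order.

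The Bcl2a1 genes lie within a stretch of chromosome 9 and encode A1, a small pro-survival protein of the hematopoietic lineage. Their reads are hard to assign to a copy, because the coding sequences of 519 bases differ among Bcl2a1a, Bcl2a1b and Bcl2a1d at only 12 positions, and the longest run shared by all 3 copies is 217 bases, from base 95 to base 311. Their first 120 coding bases, which hold 7 of these positions, are shown from GENCODE M21 transcripts (GRCm38), with capitals at each position that is not the same in all 3 copies. The stretches lie in the first coding exon at chr9:88957051-88957170 (plus strand) for Bcl2a1a, chr9:89199360-89199479 (plus strand) for Bcl2a1b and chr9:88731600-88731719 (minus strand) for Bcl2a1d.
Bcl2a1a: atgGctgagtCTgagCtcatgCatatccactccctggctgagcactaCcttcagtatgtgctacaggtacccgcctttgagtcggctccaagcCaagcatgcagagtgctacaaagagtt
Bcl2a1b: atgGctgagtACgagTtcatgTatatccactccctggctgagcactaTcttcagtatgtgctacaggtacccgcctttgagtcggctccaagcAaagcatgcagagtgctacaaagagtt
Bcl2a1d: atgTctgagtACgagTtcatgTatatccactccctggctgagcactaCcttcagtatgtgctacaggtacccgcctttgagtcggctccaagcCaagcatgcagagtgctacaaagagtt

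With reads of 75 bases, 44.8% of the 75-base words in the Bcl2a1a transcript were found in no other gene's transcripts, 31.6% of those of Bcl2a1b and 32.4% of those of Bcl2a1d, compared with 100% for the other members except Bax (93.2%). How reads that fit more than 1 copy were counted is not given in the sources used here, so the level of a single copy is uncertain, and the 3 counts were also summed. If such reads were dropped, the sum is too low as well, and its rank and share beside other genes below would be understated. A large piece of Bcl2a1b is uncertain for another reason too, since 49.1% of its exon bases are also exon of Gm29094, annotated on the same strand and at 0 counts in all 9 libraries.

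Summed Bcl2a1 was at 19.9, 15.2 and 5.81 CPM in sham blood, 21.98, 19.97 and 16.8 CPM in stroke blood, and 64.5, 53.2 and 55.6 CPM in stroke brain. The brain libraries lay close together and far above every blood library, and the 2 blood groups overlapped. The sum's log2 fold change came to 1.59 ± 0.19 over stroke blood (edgeR adjusted p = 0.00042), or 3.02-fold, and 2.08 ± 0.40 over sham blood (edgeR adjusted p = 0.0115), or 4.23-fold. Both calls were kept in every fit that left out 1 library, and over stroke blood the log2 fold change then ran from 1.45 to 1.66. The microglia markers were also high only in the brain. Among the brain libraries their sum was lowest in library 1 and highest in library 3, while summed Bcl2a1 was highest in library 1 and lowest in library 2. Of the 7 dendritic cell markers, 6 were also called higher in the brain than in stroke blood. The part of these cells in the Bcl2a1 level was not tested.

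Each copy was highest in stroke brain. Bcl2a1d (ENSMUSG00000099974, chr9:88723285-88731914, minus strand), the most counted copy, had 13.6, 11.1 and 4.48 CPM in sham blood, 13.6, 13.6 and 11.4 CPM in stroke blood, and 49.0, 32.4 and 35.1 CPM in stroke brain. Its lowest brain library was more than 2 times its highest blood library. Over stroke blood its log2 fold change was 1.63 ± 0.23 (edgeR adjusted p = 0.000934), and over sham blood 1.99 ± 0.39 (edgeR adjusted p = 0.0129).

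Bcl2a1b (ENSMUSG00000089929, chr9:89199209-89207827, plus strand) was the rarest member in blood, at 1.14, 1.03 and 0.443 CPM in sham blood, 1.27, 1.42 and 1.62 CPM in stroke blood, and 6.88, 6.44 and 6.67 CPM in stroke brain. It was the only member whose 3 groups were all separate, in the order sham blood, stroke blood, stroke brain. Its log2 fold change was 2.24 ± 0.35 over stroke blood (edgeR adjusted p = 0.00159), the largest of the 10 members, and 2.92 ± 0.42 over sham blood (edgeR adjusted p = 0.00432). Between stroke and sham blood it was 0.68 ± 0.50 and did not pass (edgeR adjusted p = 0.594).

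Bcl2a1a (ENSMUSG00000102037, chr9:88956900-88962419, plus strand) had 5.13, 3.03 and 0.886 CPM in sham blood, 7.14, 4.98 and 3.71 CPM in stroke blood, and 8.64, 14.3 and 13.9 CPM in stroke brain. Brain library 1 came close to the highest blood library, though the groups did not overlap. Its log2 fold change was 1.25 ± 0.34 over stroke blood (edgeR adjusted p = 0.0221) and 2.02 ± 0.56 over sham blood (edgeR adjusted p = 0.0406). These were the least steady calls of the 3 copies. The first was lost without stroke blood library 2 (edgeR adjusted p = 0.0677), stroke blood library 3 (0.0753), brain library 2 (0.0753) or brain library 3 (0.0720), and in a fit of all 9 libraries (0.0895). The second was lost without sham blood library 2 (edgeR adjusted p = 0.116), sham blood library 3 (0.0507), brain library 2 (0.110) or brain library 3 (0.107).

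As a share of the 3 copies' counts, Bcl2a1d made up 68.4% to 77.1% in sham blood, 61.7% to 68.2% in stroke blood and 61.0% to 75.9% in stroke brain. The share of Bcl2a1b was 10.7% to 12.1% in the brain libraries, above its 5.76% to 9.64% in the 6 blood libraries. A share within a library does not depend on scaling, but it carries the same doubt about which copy a read came from.

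All 3 copies were called higher in stroke brain than in either blood group, so a window upstream of each gene's start is shown. The start is not placed at the same base in RefSeq and GENCODE. The windows of 100 bases come from RefSeq (GRCm38.p6), with the motif GAGGAAGT in capitals. This is an ETS-type sequence of the kind bound by PU.1, a factor of the myeloid lineage, and it was chosen after the sequences were seen. The windows are chr9:88956756-88956855 (plus strand) for Bcl2a1a, chr9:89199065-89199164 (plus strand) for Bcl2a1b and chr9:88731915-88732014 (minus strand) for Bcl2a1d.
Bcl2a1a: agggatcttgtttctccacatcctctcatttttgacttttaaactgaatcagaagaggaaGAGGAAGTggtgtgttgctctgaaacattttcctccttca
Bcl2a1b: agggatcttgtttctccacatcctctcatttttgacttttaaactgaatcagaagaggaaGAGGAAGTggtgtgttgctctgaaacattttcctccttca
Bcl2a1d: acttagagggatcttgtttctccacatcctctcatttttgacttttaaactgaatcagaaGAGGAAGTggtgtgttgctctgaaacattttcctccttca

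The windows of Bcl2a1a and Bcl2a1b were the same at all 100 bases. Each was placed around the motif, and the full promoters of 300 bases of these 2 copies were the same at 73.8% of aligned positions. Read in both directions, the motif occurred in the promoters of 4 of the 10 members, the 3 Bcl2a1 copies and Bak1, and in 1052 of 32851 promoters of 300 bases (3.20%). A match of letters describes the sequence and does not show that a factor binds there.

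**Figure D3:**
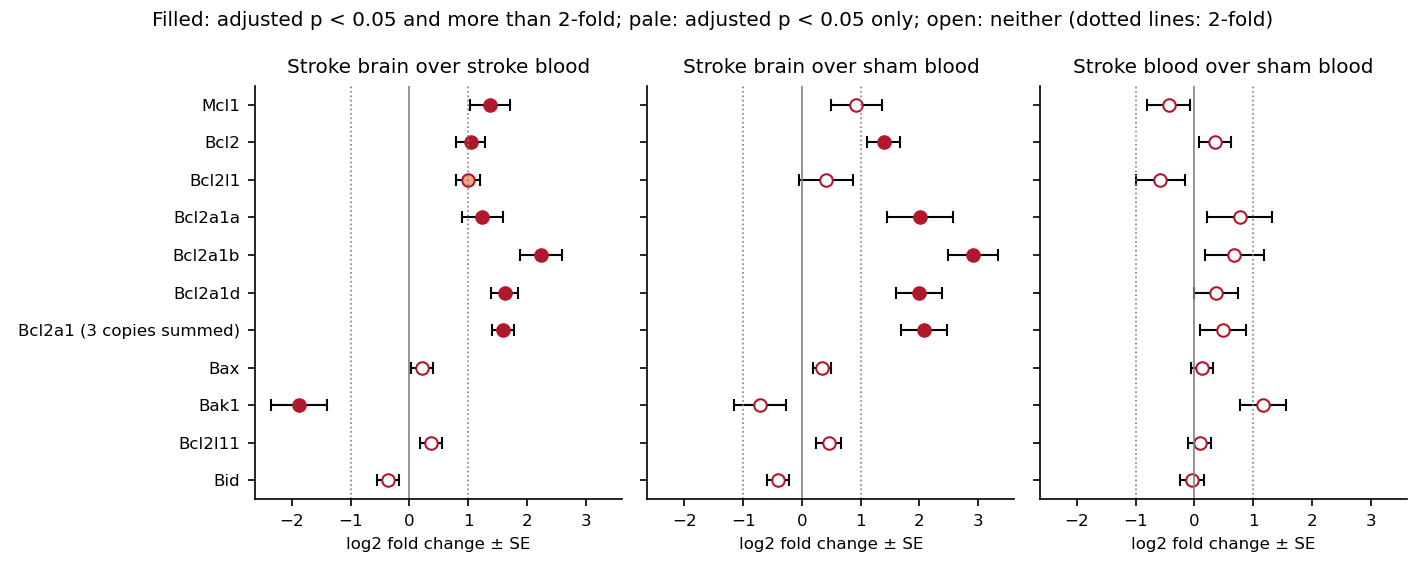
Log2 fold change (x axis) with its SE for each member and for the summed Bcl2a1 copies (y axis) in the 3 comparisons, 3 libraries against 3. Filled points passed an adjusted p below 0.05 in edgeR and the fold threshold of 2 (dotted lines), pale points the adjusted p alone, and open points neither, and none is filled in stroke blood over sham blood.

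Of the effectors, which form the pores in the mitochondrial membrane, Bak1 differed and Bax did not pass. Bak1 (ENSMUSG00000057789, chr17:27019810-27029009, minus strand) was at 6.27, 3.54 and 4.54 CPM in sham blood, 11.6, 5.74 and 15.9 CPM in stroke blood, and 4.64, 2.33 and 1.83 CPM in stroke brain. Its highest values were in stroke blood libraries 1 and 3, and the brain values overlapped those of sham blood. The log2 fold change of stroke brain over stroke blood was -1.87 ± 0.48 (edgeR adjusted p = 0.016). This call was lost without stroke blood library 1 (edgeR adjusted p = 0.0524), stroke blood library 3 (0.0701), brain library 2 (0.0558) or brain library 3 (0.0566), with log2 fold changes from -2.36 to -1.57 over the 6 fits. Stroke blood over sham blood gave 1.17 ± 0.39 (unadjusted p = 0.0145 and adjusted p = 0.327, edgeR), and stroke brain over sham blood -0.71 ± 0.45 (edgeR adjusted p = 0.299). Ggnbp1 overlaps 25.5% of the exon bases of Bak1 on the opposite strand, and it had 4 to 10 counts per library.

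Bax (ENSMUSG00000003873, chr7:45461697-45466898, minus strand) was at 44.6, 52.0 and 48.9 CPM in sham blood, 55.5, 43.6 and 64.0 CPM in stroke blood, and 70.5, 57.5 and 57.5 CPM in stroke brain. The brain libraries lay above all sham libraries and overlapped those of stroke blood. The log2 fold change was 0.22 ± 0.19 over stroke blood (edgeR adjusted p = 0.398) and 0.35 ± 0.15 over sham blood (edgeR adjusted p = 0.155).

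Neither of the BH3-only members passed in any comparison. Bcl2l11 (ENSMUSG00000027381, chr2:128126038-128162547, plus strand) encodes BIM, the main killer of immune cells deprived of growth factors. Its levels were 30.6, 33.2 and 46.5 CPM in sham blood, 39.3, 37.9 and 43.1 CPM in stroke blood, and 58.1, 52.4 and 41.1 CPM in stroke brain. Brain library 3 lay among the blood libraries, and the log2 fold change was 0.37 ± 0.19 over stroke blood (edgeR adjusted p = 0.161) and 0.46 ± 0.22 over sham blood (edgeR adjusted p = 0.179).

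Bid (ENSMUSG00000004446, chr6:120891930-120916853, minus strand) encodes the protein that caspase-8 cuts to carry a death receptor signal to the mitochondria. It had 134, 106 and 91.6 CPM in sham blood, 112, 125 and 91.9 CPM in stroke blood, and 70.0, 86.2 and 95.4 CPM in stroke brain. Brain library 3 again overlapped blood, and the log2 fold change was -0.36 ± 0.19 over stroke blood (edgeR adjusted p = 0.173) and -0.40 ± 0.19 over sham blood (edgeR adjusted p = 0.176). Bcl2l13, on the opposite strand, shares 17.7% of the exon bases of Bid and had 417 to 1105 counts per library, so part of either count may belong to the other gene if strand was not used.

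To compare genes with each other, levels were divided by the length of all exons joined, in CPM per kilobase (kb). In stroke brain the order was Mcl1 at 203 ± 100, summed Bcl2a1 at 68.2 ± 6.72, Bax at 39.2 ± 4.77, Bid at 23.6 ± 3.62, Bcl2l1 at 21.0 ± 4.78, Bcl2l11 at 6.30 ± 1.07, Bcl2 at 3.55 ± 0.831 and Bak1 at 1.22 ± 0.622 CPM per kb (SD, n = 3). Only the neighbors Bid and Bcl2l1 overlapped in that order. In stroke blood the order was Mcl1 (80.8 ± 25.6), Bax (34.5 ± 6.48), Bid (30.9 ± 4.67), summed Bcl2a1 (23.1 ± 3.14), Bcl2l1 (10.7 ± 1.36), Bcl2l11 (4.99 ± 0.331), Bak1 (4.60 ± 2.11) and Bcl2 (1.75 ± 0.355 CPM per kb, SD, n = 3). There Bax overlapped Bid, Bid overlapped summed Bcl2a1, and Bcl2l11 overlapped Bak1. Summed Bcl2a1 thus stood at rank 2 in the brain and rank 4 in stroke blood, and Bcl2 and Bak1 changed places at the bottom. These ranks rest on the length used: the joined exons of Bcl2l1, for example, hold 4586 bases and its longest transcript 2568. Without division by length, summed Bcl2a1 in stroke brain had a mean of 57.8 CPM. That was below Bcl2l1 (96.1), Bid (83.8) and Bax (61.8 CPM). In sham blood Mcl1 again led with 106 ± 57.9 CPM per kb, and Bid and Bax (31.2 ± 6.14 and 30.8 ± 2.36), summed Bcl2a1 and Bcl2l1 (16.0 ± 8.44 and 15.7 ± 9.52), and Bak1 and Bcl2 (1.99 ± 0.574 and 1.35 ± 0.409) overlapped in pairs around Bcl2l11 at 4.58 ± 1.06 CPM per kb (SD, n = 3).

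Within the summed pro-survival level per kb, Mcl1 held the largest share in every library. Its share was 72.7%, 79.5% and 72.9% in sham blood, 66.2%, 61.8% and 77.2% in stroke blood, and 76.8%, 64.3% and 58.4% in stroke brain. The 3 groups overlapped, with means of 75.03% ± 3.88, 68.4% ± 7.92 and 66.5% ± 9.41 (SD, n = 3). Summed Bcl2a1 held 20.9%, 8.22% and 7.62% in sham blood, 21.8%, 25.9% and 14.2% in stroke blood, and 18.3%, 25.2% and 29.4% in stroke brain. These shares also overlapped between groups, although the mean share of summed Bcl2a1 was higher in stroke brain than in sham blood. Bcl2l1 held 3.76% to 18.4% and Bcl2 0.816% to 1.90% over the 9 libraries. The mean shares in stroke brain were 24.3% ± 5.58 for summed Bcl2a1, 7.95% ± 3.75 for Bcl2l1 and 1.23% ± 0.142 for Bcl2, in stroke blood 20.6% ± 5.92, 9.40% ± 1.58 and 1.57% ± 0.480, and in sham blood 12.3% ± 7.51, 11.7% ± 6.60 and 1.02% ± 0.183 (SD, n = 3).

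**Figure D4:**
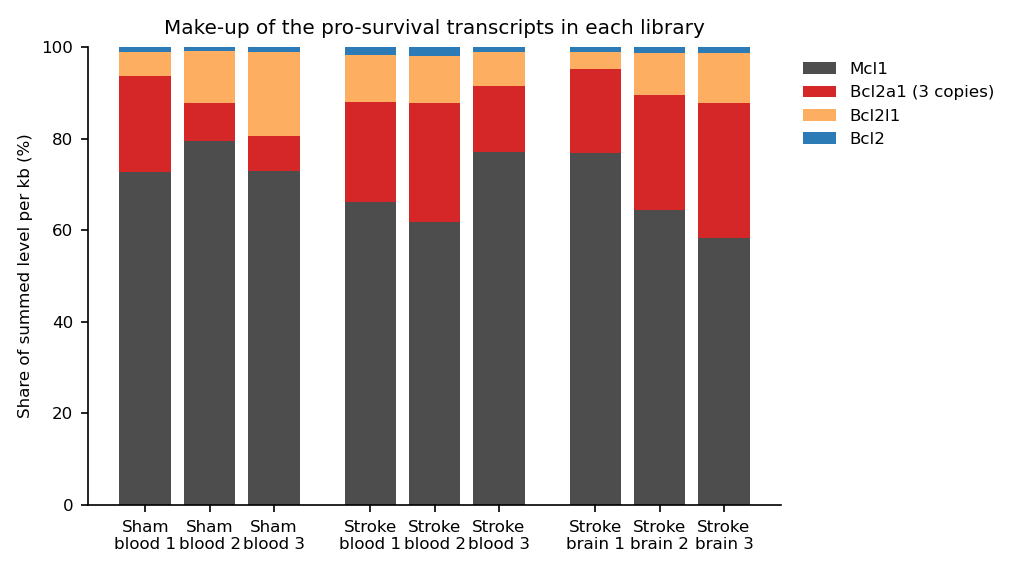
Share of Mcl1, the summed Bcl2a1 copies, Bcl2l1 and Bcl2 in their summed level per kb (y axis, percent) in each of the 9 libraries (x axis). Mcl1 is the largest block in each, from 58.4% to 79.5%.

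Ratios of 2 members within a library do not depend on scaling between libraries. The ratio of Bcl2l11 to Bcl2 per kb was 2.91, 2.33 and 6.06 in sham blood, 2.30, 2.73 and 3.796 in stroke blood, and 1.63, 1.93 and 1.83 in stroke brain. All 3 brain libraries lay below all 6 blood libraries. The ratio of Bax to Bak1 was 10.9, 22.4 and 16.5 in sham blood, 7.29, 11.6 and 6.16 in stroke blood, and 23.2, 37.7 and 47.9 in stroke brain. Here the brain libraries lay above all blood libraries, though only narrowly above sham blood library 2. The ratio of summed Bcl2a1 to Mcl1 ran from 0.239 to 0.504 in the brain, 0.184 to 0.419 in stroke blood and 0.103 to 0.288 in sham blood, and that of Bcl2l1 to Mcl1 from 0.0490 to 0.188, 0.0983 to 0.169 and 0.0719 to 0.253, so both overlapped between all groups. No test was made on the ratios.

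The other genes of the pathway were read from 7 lists with 69 symbols, of which 60 were tested in stroke brain versus stroke blood. Of these, 6 were called higher and 3 lower, and at the adjusted p alone 10 were higher and 8 lower. These 9 and 18 of 60 stand beside 21% and 30.6% of all genes tested, so as a group they were called no more often than other genes, with a median log2 fold change of -0.06. In stroke brain versus sham blood 3 were called higher and 3 lower of 60, beside 13.4% of all genes, and in stroke blood versus sham blood none of 60 by edgeR or DESeq2.

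Among the 16 other BCL2 family genes 10 were tested, and 1 rose and 2 fell past both thresholds in stroke brain versus stroke blood. Pmaip1, which encodes NOXA, the BH3-only protein that binds MCL1 and A1, was at 62.8, 34.8 and 16.4 CPM in sham blood, 44.5, 56.7 and 25.3 CPM in stroke blood, and 218, 160 and 118 CPM in stroke brain. The brain libraries were above all blood libraries, with a log2 fold change of 2.00 ± 0.33 over stroke blood (edgeR adjusted p = 0.002), and 2.12 ± 0.46 over sham blood (edgeR adjusted p = 0.0179, and 0.0681 without sham blood library 2). Its direction was thus that of Mcl1 and Bcl2a1, the genes of its 2 known partners. Bmf, a BH3-only gene linked to cell detachment, was at 15.0 to 28.3 CPM in the 6 blood libraries and at 7.03, 5.15 and 7.33 CPM in stroke brain. Its log2 fold change was -1.86 ± 0.24 over stroke blood (edgeR adjusted p = 0.000604) and -1.78 ± 0.29 over sham blood (edgeR adjusted p = 0.0067). Bnip3l, which encodes a receptor for the removal of mitochondria that is also used by maturing red cells, fell to 129 to 152 CPM in the brain from 214 to 395 CPM in blood, with a log2 fold change of -1.19 ± 0.15 over stroke blood (edgeR adjusted p = 0.000496). The erythroid markers given above fell with it, and their part in its level was not tested. Bbc3, the gene of PUMA, passed the adjusted p but not the fold threshold, with -0.75 ± 0.21 (edgeR adjusted p = 0.0242), and no longer passed without stroke blood library 1 (0.0742), brain library 2 (0.0878) or brain library 3 (0.0888), when scaled by library size only (0.0591) or in a fit of all 9 libraries (0.0702).

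Downstream of the mitochondria, none of the 15 genes from cytochrome c to the caspases and their targets was called in stroke brain versus stroke blood by edgeR. Of the 8 caspase inhibitors 1 was called, Xiap, which was lower at 22.5, 14.04 and 16.2 CPM in the brain against 43.1, 29.6 and 60.9 CPM in stroke blood, with -1.30 ± 0.29 (edgeR adjusted p = 0.00872). Over sham blood it was not called (-0.54, edgeR adjusted p = 0.225). Naip2 was lower at the adjusted p alone, at 55.4, 49.9 and 34.7 CPM in the brain and 89.2, 81.6 and 109.7 CPM in stroke blood, with -0.97 ± 0.21 (edgeR adjusted p = 0.0082). It passed the adjusted p whichever library was left out, and the fold threshold too in 4 of those 6 fits. Cflar, which encodes the brake on caspase-8, was higher at the adjusted p alone, at 0.77 ± 0.19 (edgeR adjusted p = 0.0153). It no longer passed without stroke blood library 1 (0.0913), stroke blood library 2 (0.0607) or brain library 2 (0.0509).

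On the death receptor route to BID 8 of 9 genes were tested and 1 was called over stroke blood, the ligand gene Fasl, with 27.0, 22.3 and 20.5 CPM in stroke brain and 13.9, 5.41 and 4.49 CPM in stroke blood. Its log2 fold change was 1.58 ± 0.41 (edgeR adjusted p = 0.0168), and the call was lost without stroke blood library 2 (0.0701) or library 3 (0.0640). Over sham blood it was 1.47 ± 0.34 (edgeR adjusted p = 0.0221), and that call was lost on leaving out any library but sham blood 2, with an adjusted p of up to 0.077 without sham blood library 3. Fasl is a gene of T and NK cells. Of the 10 T cell markers 6 were called higher in the brain, with summed levels of 205, 175 and 203 CPM beside 96.2, 57.9 and 44.3 CPM in stroke blood, led by Lck. Over sham blood, at 83.8, 172 and 92.0 CPM, 1 of the 10 was called. The NK markers, led by Gzma, summed to 471, 1041 and 1140 CPM in the brain and 784, 305 and 249 CPM in stroke blood, which overlapped, and 1 of 6 was called higher. The part of these cells in the Fasl level was not tested. The receptor gene Fas was lower in the brain than in sham blood, at 22.5, 23.7 and 19.1 CPM against 64.4, 47.0 and 43.6 CPM. The log2 fold change (SE) was -1.25 ± 0.20 (edgeR adjusted p = 0.0063). Against stroke blood Fas was lower at the adjusted p alone, with -0.87 ± 0.22 (edgeR adjusted p = 0.0148). That pass was lost without stroke blood library 1 (0.0547) or brain library 3 (0.0684).

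Of 9 genes for the turnover of MCL1 and BIM protein, 2 were called in stroke brain versus stroke blood, both higher. Gsk3b, whose kinase marks MCL1 for destruction, rose to 86.5, 127 and 134 CPM in the brain from 35.4, 34.5 and 54.3 CPM in stroke blood, with a log2 fold change (SE) of 1.52 ± 0.23 (edgeR adjusted p = 0.00147). Sham blood was at 70.6, 79.0 and 53.0 CPM, below the brain, and over it the gene was not called (0.77, edgeR adjusted p = 0.0442), nor did it pass the adjusted p in 5 of 6 fits with a library left out (up to 0.141 without brain library 3). Mapk3 was lower at the adjusted p alone, with -0.97 ± 0.26 (edgeR adjusted p = 0.021), and passed it in 2 of 6 such fits, being lost without stroke blood library 1 (0.0747) or 3 (0.0627) or brain library 2 (0.0748) or 3 (0.0842). Btrc was higher at the adjusted p alone (0.72, edgeR adjusted p = 0.0398) and passed in 2 of 6. Cdk1, a kinase of dividing cells, was at 11.7, 5.53 and 9.07 CPM in the brain and at 0.306, 0.190 and 0.180 CPM in stroke blood, which is close to the floor of 3 counts. In sham blood it was at 2.69, 1.03 and 0.554 CPM, with 2.61 ± 0.59 for the brain over it (edgeR adjusted p = 0.0202, and lost without sham blood library 2, 0.0767, sham blood library 3, 0.0562, or brain library 3, 0.0579). Of the 10 transcription factors tested, 2 were called higher over stroke blood. Rela, the NF-kappaB subunit, was at 251, 238 and 214 CPM in the brain and 102 to 123.2 CPM in stroke blood, with 1.14 ± 0.15 (edgeR adjusted p = 0.000687), and 0.99 with upper-quartile normalization. Its sham blood libraries were at 114, 213 and 166 CPM, and the brain over these gave 0.51 (edgeR adjusted p = 0.151). Foxo1, an activator of Bcl2l11, gave 1.13 ± 0.24 (edgeR adjusted p = 0.0071), with 0.97 when stroke blood library 2 was left out and 0.98 with upper-quartile normalization. Against sham blood it gave 0.35 (edgeR adjusted p = 0.529), and none of the 10 factors was called there by edgeR. Stat3 (0.55, edgeR adjusted p = 0.0235) and Atf4 (0.84, 0.044) were higher over stroke blood at the adjusted p alone, and passed it in 3 and 1 of 6 fits with a library left out.

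**Figure D5:**
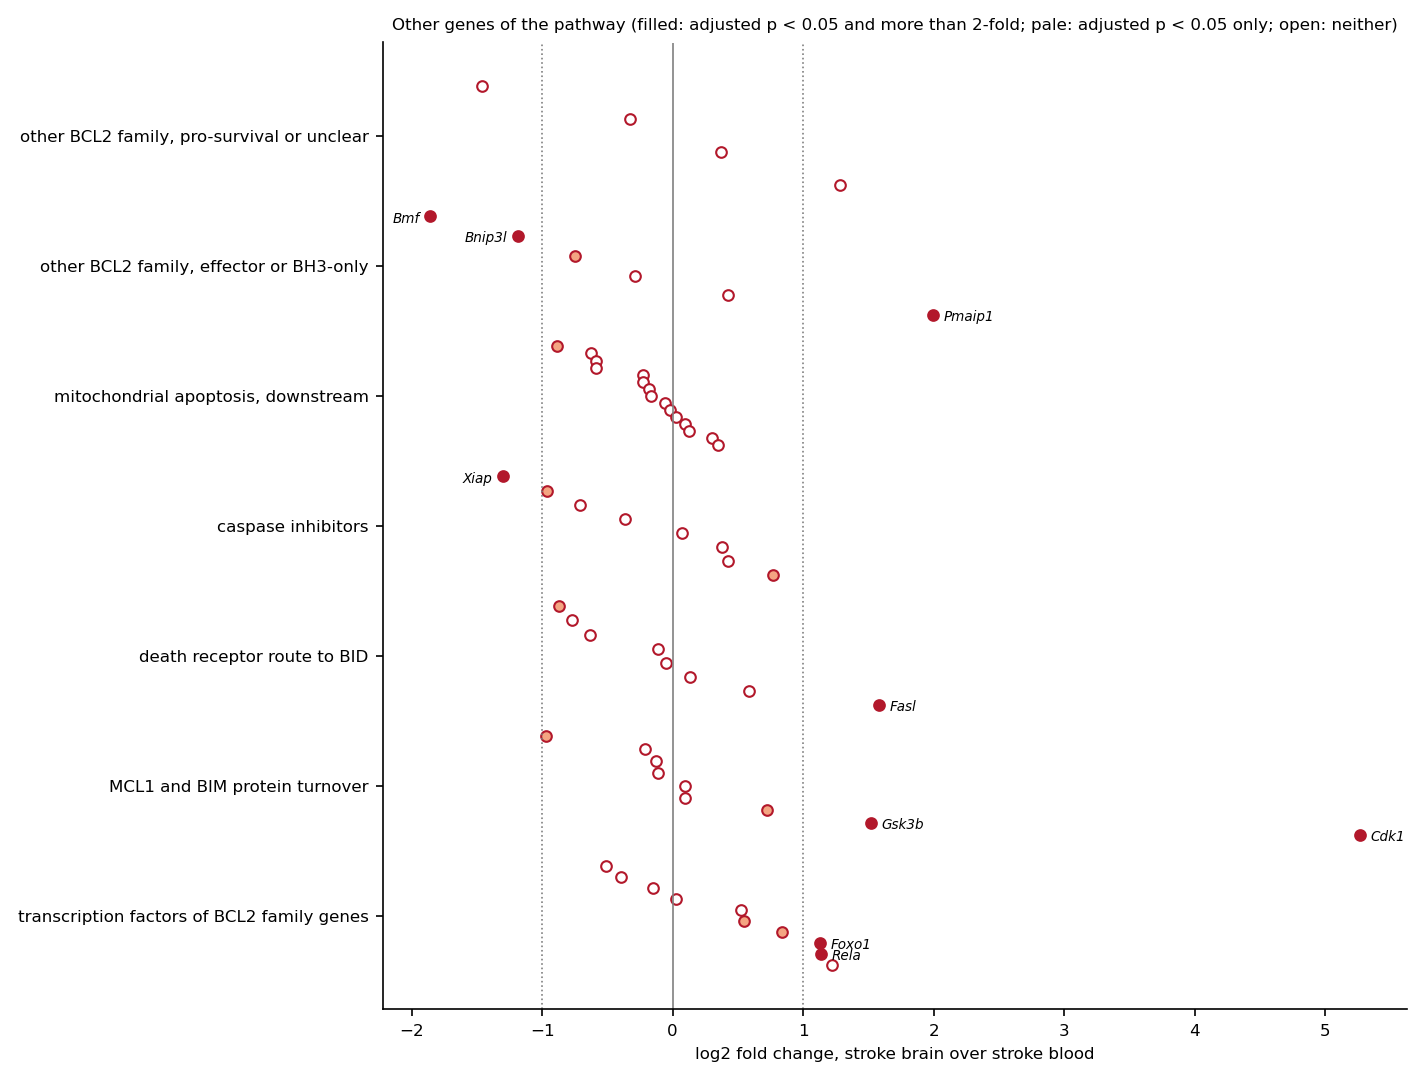
Log2 fold change of stroke brain over stroke blood (x axis) for the 60 other pathway genes tested, grouped by list (y axis), 3 libraries against 3. Filled points passed an adjusted p below 0.05 in edgeR and the fold threshold of 2 (dotted lines), pale points the adjusted p alone, and open points neither, with names on the filled points, from Bmf at -1.86 to Cdk1 at the far right.

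The genes whose log2 CPM followed a member most closely over the 9 libraries were picked from the 8174 or 8175 other genes with a mean log2 CPM above 3 and are given as a description only. For summed Bcl2a1 these were Dmtf1 (Pearson r = 0.984) and Ccdc102a (0.969), for Mcl1 Ptprs (0.960) and Arih1 (0.958), for Bcl2 Heg1 (0.966) and Cd36 (0.965), and for Bcl2l1 Plpp6 (0.973) and Gcc2 (0.959). For Bax they were Wnk1 (0.973) and Otud4 (0.943), and for Bid Armc1 (0.980) and Mgat1 (0.960). The closest pattern of all was that of Bak1, with Rack1, which encodes a protein of the small ribosomal subunit, at r = 0.992 and the ribosomal pseudogene Rpl10-ps3 at 0.991. Rack1 was at 988, 620 and 1096 CPM in stroke blood libraries 1 to 3, the same order as Bak1, and at 555, 368 and 366 CPM in stroke brain.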

How the data were processed

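Gene counts were made by the authors, who per the submitters' processing notes used HISAT2 for alignment to GRCm38 and HTSeq for counting by gene, and were deposited as 1 table per library. Libraries were made with the SMART-Seq HT and Nextera XT kits. PCR copies were not marked by molecular tags, and the floor of 3 counts therefore includes no error from amplification. The strand setting, HTSeq mode and treatment of reads with several matches are not given in the sources used here.

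Counts of each pair of groups were filtered (filterByExpr), scaled (TMM) and tested in edgeR 4.0.16 (R 4.3.3, quasi-likelihood), calling an absolute log2 fold change above 1 at a Benjamini-Hochberg adjusted p below 0.05. DESeq2 1.42.0 was used as an alternative, and tables were made with Python 3.11.15 and pandas 2.3.3. Whether groups overlap was read after scaling the 2 groups compared, and printed levels were scaled over all 9 libraries. Other alternatives were RLE, upper-quartile and library-size scaling, other filters and thresholds, 1 fit of all 9 libraries, a replicate block, leaving out each library, summing the Bcl2a1 copies, and other length divisors.

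Genes named in the text are members, listed pathway genes that passed the adjusted p in some comparison, the most abundant or defining gene of each marker list, genes whose exons overlap a member, and the 2 genes most alike to each member. Some of these genes are not reported here. Likeness was Pearson's r of log2 CPM (0.5 added) over 9 libraries. The members and lists were chosen with earlier results of these data known. Ddit3 matched 2 gene identifiers and was left out. Replicates differed beyond counting noise, with chi-square per degree of freedom of 23.9 to 135.9 between libraries of a group. On simulated counts the edgeR script passed, at the adjusted p, 16 of 50 genes with a true fold of 2 and 32 of 50 at 4, but 4 of 50 at 0.5 and 28 of 50 at 0.25, with 0 in the wrong direction and 7 passing among the unchanged of 12812 genes. Only these 4 sets of 50 were changed there, whereas 30.6% of genes passed in stroke brain versus stroke blood. The adjusted p depends on that part, so these rates do not measure the power of the test on the real counts.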

Additional observations from a re-analysis of the deposited data

How the results depend on the processing

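Of the 10 members, 6 were called in stroke brain versus stroke blood, and 2 at an adjusted p below 0.01, where 3 passed the adjusted p alone, beside 1793 and 2089 of 13189 genes. Leaving out 1 library gave 3 to 5 called and 4 to 7 at the adjusted p, beside 2258 to 3014 and 2741 to 4147 of all genes in these fits, which tested 13726 to 13987. In stroke brain versus sham blood 4 were called, 1 at an adjusted p below 0.01 (1 also without the fold threshold, beside 792 and 865 of 13020 genes), and 2, Bcl2 and the sum, once the 3 Bcl2a1 copies were counted as a single gene. The sum itself, at a log2 fold change of 2.08 there, was no longer called at an adjusted p below 0.01 (edgeR adjusted p = 0.0115). The changes with the stricter threshold and with the sum follow from the rule itself, and the cause of those with a library left out was not tested. Of the other pathway genes, 18 instead of 9 were called in stroke brain versus stroke blood with no fold threshold, and 2 instead of 6 in stroke brain versus sham blood at an adjusted p below 0.01.

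Shares of the pro-survival level depended on length, as they must when the divisor changes. Without division by length Mcl1 held 76.7% in stroke brain, Bcl2l1 14.03% in stroke blood and 12.5% in stroke brain, summed Bcl2a1 3.27%, 5.71% and 7.01% in sham blood, stroke blood and stroke brain, and Bcl2 2.85%, 4.68% and 3.82%. With the longest transcript as divisor Mcl1 held 68.6% in sham blood, Bcl2l1 18.8%, 15.6% and 13.2%, and Bcl2 1.47% in stroke brain. Mcl1 was the largest share throughout.

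Directions that turned were all between stroke and sham blood, where no member passed. Bid changed from -0.04 to 0.028 with upper-quartile normalization, and with 1 library left out it ran from -0.19 to 0.12, Bcl2l11 from -0.022 to 0.29 and Mcl1 from -0.70 to 0.10. The cause was not tested. Scaling by library size only moved the median log2 fold change of all genes from 0.06 to 0.22 in stroke brain versus stroke blood and from 0.01 to 0.13 versus sham blood. Upper-quartile scaling moved them the other way, to -0.09 and -0.06. In stroke brain versus stroke blood the genes called higher and lower changed from 1734 and 1037 to 1515 and 1362 with upper-quartile scaling. Scaling by library size only gave 2058 and 792.

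Library numbers were entered as a block in a further fit. It called 6, 0 and 3 members in stroke brain versus stroke blood, stroke versus sham blood and stroke brain versus sham blood, beside 2634 of 13189, 1 of 12664 and 1571 of 13020 genes. In the last comparison Bcl2a1a was lost (log2 fold change 2.23, edgeR adjusted p = 0.0655). Of the other genes it ended the pass at the adjusted p for Bbc3 (-0.75, 0.0506) and Btrc (0.72, 0.0759) over stroke blood and for Gsk3b (0.76, 0.0749) and Casp9 (-0.65, 0.0873) over sham blood, and it ended no other call of the genes listed. The numbers do not pair the libraries: correlations of same-numbered libraries ran from -0.07 to 0.066, and 2 of 6, 0 of 6 and 3 of 6 libraries correlated best with their own number.

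Stroke versus sham blood had 1 gene called over all genes, 127 by DESeq2, 160 without the filter and 16 without sham blood library 1, and no member in any of these. With 3 libraries per group and blood from single mice, a missing call is weak evidence of no change. Cell numbers, protein levels and cell death were not measured. The make-up of the sorted cells and their preparation differed between brain and blood, and the part of each in the members' levels was not tested.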
